A study of Mus musculus with 24 samples.

Results

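Tumor-associated macrophages of APC-WT tumor 2 were compared with those of APC-WT tumor 1. Both groups are CD45+ CD11b+ F4/80+ cells sorted from tumors that grew orthotopically in C57BL/6J mice after implantation of MC38, a carcinoma line of mouse colon. The MC38 cells of both tumors carried intact Apc, the gene that restrains Wnt signalling, and the labels name no drug or other allele for either. The members are the 12 libraries that the labels assign to these tumors, 6 a side, out of 24 in the series, and the other 12 come from APC-KO tumors. Tumors were digested with Liberase and red cells were lysed before the sort, and total RNA went into an ultra low input protocol (Nextera XT). The labels call the 6 libraries replicates of 1 sample, so n is 1 tumor a side. All p-values here measure the spread between libraries of a tumor, which may be technical, and not the spread between tumors or mice.

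Macrophages of a solid tumor are a mixture. Some descend from cells that lived in the tissue before the tumor and carry scavenger and mannose receptors such as Siglec1 and Mrc1, while others arrive as blood monocytes and mature on site. Within the tumor, interferons, microbial products, low oxygen and uptake of dying cells each switch on a known set of genes: antiviral genes, Nos2 and cytokines, glycolytic enzymes, or lysosomal and lipid genes. A sort on CD11b and F4/80 enriches these cells but can also pass neutrophils, doublets and free RNA of neighbouring cells.

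Library totals ranged from 74972634 to 93568353 counts in tumor 1 and from 28018638 to 46837543 in tumor 2. Olfr and Vmn genes, which encode odorant and pheromone receptors and served as a measure of background, took 0.0344% ± 0.00151 (SD, n = 6) of counts in tumor 1 and 0.233% ± 0.0106 in tumor 2. Per kb of exon, that background came to 0.0589 and 0.420 scaled CPM. Scaled CPM are a gene's counts in CPM, with the summed, TMM-scaled counts of the expressed genes as the library size. Expressed genes had a mean of at least 10 CPM over both tumors and at least 10 times the background expected from their exon length. Of 55487 genes 36052 were tested and 7833 counted as expressed, which held 96.3% and 93.3% of counts. With TMM computed over all tested genes instead, the median expressed gene moved to -0.90 on the log2 scale, so every difference below is relative to the expressed genes, whose median lay at 0.0018.

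The libraries of a tumor were not alike. In a principal component analysis of all expressed genes, component 1 held 51.7% of the variance and component 2 33.7%. On component 1, library 1 of tumor 1 lay at 3.27, beside library 4 (3.26) and above library 5 (1.01) of tumor 2. The other libraries of tumor 1 lay from -23.8 to -10.5. A range of at least 2-fold between libraries was found in both tumors for 421 of the 7833 expressed genes. In these genes library 1 of tumor 1 lay 1.16 log2 units above its tumor's median and libraries 2 and 3 of tumor 2 lay 0.75 and 0.75 above theirs, whereas library 5 of tumor 2 lay at -0.80. Cebpb, a transcription factor of the myeloid inflammatory response whose exon overlaps an exon of Tmem189, was read at 1377, 115, 43.5, 142, 72.4 and 59.97 scaled CPM in libraries 1 to 6 of tumor 1 and at 307, 1638, 1587, 60.9, 73.5 and 104 in those of tumor 2. Jund, Klf2 and Klf4, further early response transcription factors, were also high in library 1 of tumor 1 and in libraries 1, 2 and 3 of tumor 2. None of Cebpb (adjusted p = 0.337), Jund (adjusted p = 0.0922) and Klf2 (adjusted p = 0.0756) passed edgeR's quasi-likelihood test between the tumors. Without library 1 of tumor 1, the log2 difference of Cebpb went from 1.06 to 2.86 and passed. What set these libraries apart was not tested.

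**Figure D1:**
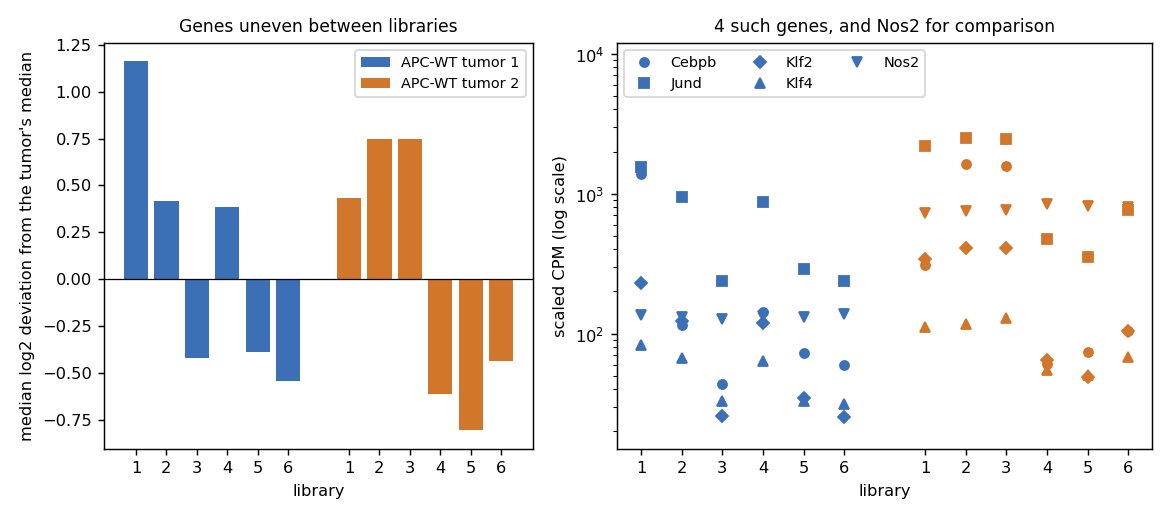
Left, the median log2 deviation of 421 uneven genes from their tumor's median in each library. Right, the level of Cebpb, Jund, Klf2, Klf4 and, for comparison, Nos2 in scaled CPM on a log axis. Libraries 1, 2 and 4 of tumor 1 and 1, 2 and 3 of tumor 2 lie above 0, and Nos2 varies little within a tumor.

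Most expressed genes differed by little and many differed measurably. By edgeR's quasi-likelihood test with Benjamini-Hochberg adjustment over all tested genes, 2259 expressed genes (28.8%) were higher in tumor 2 and 2582 (33.0%) were lower at an adjusted p below 0.05. At least 2-fold as well were 148 genes (1.89%) higher and 45 (0.574%) lower. With at least 10 CPM asked of both tumors these became 88 and 39, with 30 times the background 88 and 28, and glmTreat, edgeR's test against 2-fold, called 127 and 27. Library values of the tumors overlapped for 5 of the genes at least 2-fold higher and for 2 of those lower. The share of all expressed genes without overlap was not counted, so lack of overlap below describes only the genes named. Leaving out library 1 of tumor 1 raised the number at least 2-fold higher from 148 to 236. Leaving out that library and libraries 1, 2 and 3 of tumor 2, below called the 4 that stand apart, gave 145 higher and 44 lower. These 4 were chosen after their values were seen and are not cleanly set off. In the uneven genes, library 1 of tumor 2 lay at 0.43, and libraries 2 and 4 of tumor 1, which were kept, at 0.42 and 0.39. Libraries 4, 5 and 6 of tumor 2, also kept, lay at -0.61, -0.80 and -0.43. In the lists of genes described below, 63 of the genes at least 2-fold higher and 12 of those lower were found. Counts of list members are of expressed members at that adjusted p, to be read against these percentages.

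**Figure D2:**
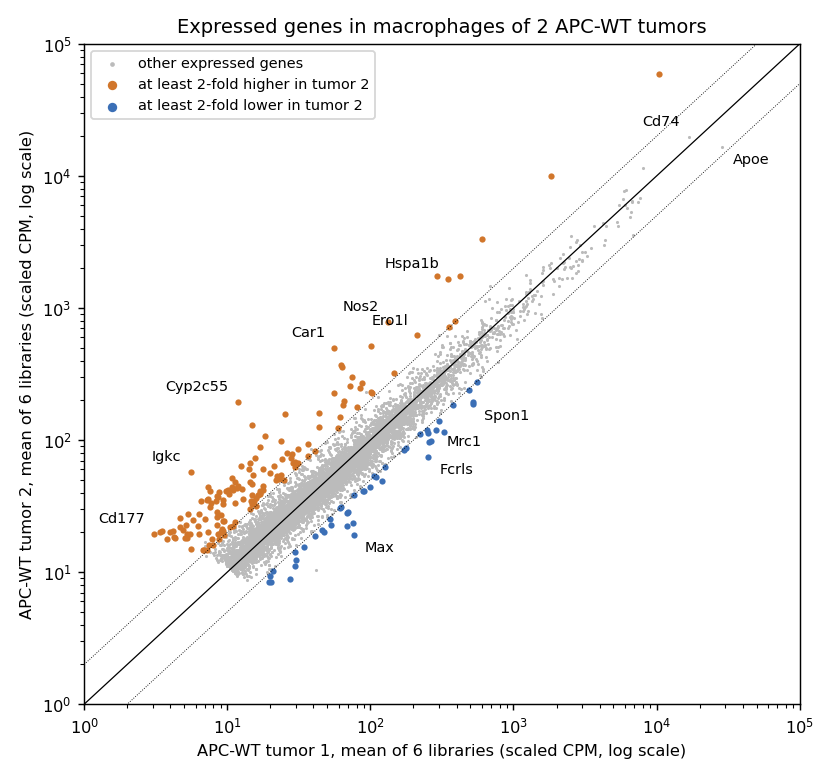
Mean scaled CPM of each expressed gene over the 6 libraries of tumor 1 (x axis) and of tumor 2 (y axis), both on log scales. The solid line marks equal levels and the dotted lines 2-fold differences. Coloured points are the 148 genes at least 2-fold higher and the 45 at least 2-fold lower. The uncoloured bulk lies within the dotted lines, and the highest coloured points are gene models that resemble satellite repeats.

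The sorted cells of both tumors carried the genes of the sort at high levels. Here and below, levels are the median scaled CPM of a tumor's 6 libraries, with the lowest and highest library in brackets. Ptprc, which encodes CD45, was read at 873 (861 to 892) scaled CPM in tumor 1 and 852 (839 to 885) in tumor 2, overlapping ranges that did not pass the test (adjusted p = 0.141). Itgam, which encodes CD11b, ran at 1233 (1210.5 to 1259) and 1314 (1219 to 1425), and its ranges overlapped too, although the log2 difference of 0.10 passed (adjusted p = 0.00457) and no longer did with an offset for transcript length. Adgre1, which encodes F4/80, was lower in tumor 2, at 857 (829.8 to 889) against 971 (964 to 1012). Csf1r, through which the growth factor CSF1 keeps macrophages alive, went from 3009 (2989 to 3039.7) to 2227 (2171 to 2379). Cd68, a lysosomal membrane protein of macrophages, had levels of 584 (574 to 593) and 604 (589.7 to 613), with ranges that overlapped. Of 19 expressed sort and pan-macrophage genes, 4 were higher, 13 lower and 2 neither, with a median log2 difference of -0.19 against 0.0018 over all expressed genes. The most distant members were Mertk, an efferocytosis receptor, at -0.99, and Cx3cr1, the fractalkine receptor, at -0.63. In sorted bulk RNA, fewer cells of a type and less RNA per cell cannot be told apart.

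Genes of tissue-resident macrophages were lower in tumor 2. Of 14 expressed members, 13 were lower, 0 were higher and 1 did not pass, and the median log2 difference was -0.48. Mrc1, the mannose receptor CD206, was read at 286 (277 to 295) scaled CPM in tumor 1 and 119 (115 to 123) in tumor 2, a log2 difference of -1.26 (SE 0.02, adjusted p = 1.37e-14). Siglec1, a sialic acid receptor of resident macrophages, ran at 377 (369 to 404) and 180.0 (168 to 205). Selenop, which carries selenium, and Stab1, a scavenger receptor, were lower by 0.93 and 0.64 log2 units. Pf4, a chemokine of platelets and of resident macrophages, fell from 120.4 (116 to 128) to 49.4 (46.6 to 51.4). The libraries of the tumors did not overlap in these 5 genes, which were picked for the size of their difference. Mrc1 and Pf4 were also among the 15 largest decreases, for which lack of overlap was a condition. Fcrls, an Fc receptor-like gene known from microglia and other resident macrophages, was in no list and went from 256 (247 to 259) to 74.4 (68.6 to 79.5) scaled CPM. Vcam1, an adhesion molecule that macrophages of spleen and marrow carry, went from 327 (324 to 337) to 114 (108 to 124).

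Genes listed for an early monocyte-derived state were mostly higher in tumor 2. In that list, 15 of 24 expressed members were higher and 4 lower, with a median of 0.45. Lyz2, also listed as a pan-macrophage gene, was among the lower ones. Whether the cells had newly arrived was not tested. Chil3, a chitinase-like protein of monocytes and neutrophils, was read at 44.2 (41.5 to 45.1) scaled CPM in tumor 1 and 123 (119.5 to 135) in tumor 2. Hp, which encodes haptoglobin, ran at 26.2 (24.3 to 28.4) and 79.7 (76.1 to 82.7). Cd177, a surface protein of neutrophils, was the most distant member, at 3.095 (2.35 to 3.64) and 19.4 (15.9 to 22.9), a log2 difference of 2.65 (SE 0.11). Gsr, glutathione reductase, was higher by 1.14 log2 units and varied between libraries, at 78.8 (60.4 to 112) and 171 (133 to 231). No library of one tumor reached into the range of the other for these 4 genes, which were picked for the size of their difference. The neutrophil list shares 1 expressed member, Cd177, and without it 14 of 23 were higher and 4 lower. Leaving out 1 gene cannot tell monocyte from neutrophil RNA, and Chil3, which neutrophils also express, stays in. Neutrophil markers moved in the same direction: the summed level of the 32 listed genes was 917 to 953 scaled CPM in tumor 1 and 1587 to 1674 in tumor 2. Their part in the monocyte genes was not tested.

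**Figure D3:**
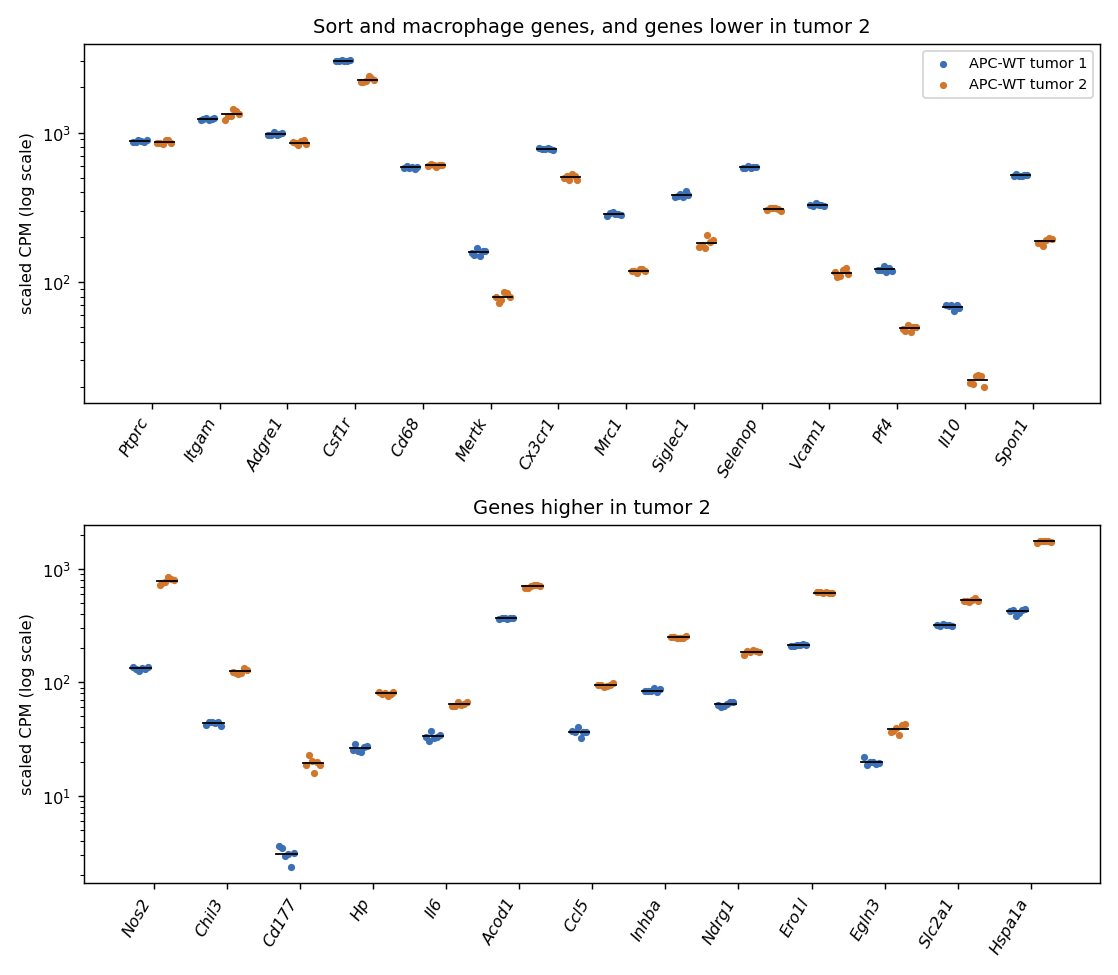
Scaled CPM (log axis) in each of the 6 libraries of tumor 1 and of tumor 2, with the mean of each tumor as a bar. Above, genes of the sort and genes lower in tumor 2. Below, genes higher in tumor 2. Ptprc, Itgam and Cd68 overlap between the tumors. The other 24 genes do not, but most of them were picked for large differences. The share of all expressed genes without overlap was not counted.

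Nos2, the inducible nitric oxide synthase that macrophages use to kill microbes, was among the genes with the largest increase (chr11:78920787-78960254, GRCm38). Its lowest, median and highest libraries lay at 127, 133 and 137 scaled CPM in tumor 1 and at 726, 785 and 848 in tumor 2, a log2 difference of 2.56 (SE 0.04, edgeR adjusted p = 7.72e-16). Every library of tumor 2 was at least 5.304 times the highest of tumor 1. Lack of overlap was a condition for the 15 largest increases, Nos2 among them, so it is no separate result. The genes around it in arginine metabolism went up too, by less: Slc7a2, an arginine transporter, by 0.87, and Ass1, which regenerates arginine from citrulline, by 0.73. Arg1, the arginase that competes with Nos2 for arginine, was higher by 0.17, from 916 (906 to 943) to 1037 (997 to 1060.0). Of 10 expressed genes of alternative activation and arginine use, 6 were higher and 3 lower, with Chil3 and Mrc1 at the ends. Klf4, also in this list and one of the genes uneven between libraries, was higher by 0.77 at an adjusted p of 0.025, but its libraries overlapped, and without the 4 libraries that stand apart it did not pass, at 0.35. Leaving out any 1 of libraries 3, 5 and 6 of tumor 1 and 1, 2 and 3 of tumor 2 also ended its call.

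The type I and the gamma interferon response are described apart. The type I interferon response, the antiviral genes that the receptor IFNAR switches on, was lower in tumor 2 in 33 of 37 expressed members and higher in 0, with a median of -0.43. Slfn5, a Schlafen family gene, was read at 306 (290.4 to 315) scaled CPM in tumor 1 and 137 (133 to 150.5) in tumor 2 (log2 difference -1.12, SE 0.03). Ifi44, Ifi207 and Ifit3b were lower by 0.84, 0.75 and 0.72, without overlap of libraries. Ifit3b is a near-identical copy of Ifit3, so its share of reads is uncertain. Ifit2, which binds viral RNA, ran at 595 (572 to 619) in tumor 1, but in tumor 2 library 4 was read at 9.89 and the others from 348 to 381. The gene did not pass with that library (adjusted p = 0.0761) and passed without it, at -0.73. Parp14, an ADP-ribosyltransferase that interferon induces, was among the largest decreases and in no list, from 259 (248 to 266) to 96.9 (80.2 to 113).

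Promoters of these genes are shown because their members moved together and interferon acts through a known motif. The interferon-stimulated response element was searched as GAAA, any 2 bases and GAAA again on both strands of the 250 bases before each start site in RefSeq (GRCm38.p6). It was found for 16 of 29 members with a promoter in the table, or 55.2%, against 3.895% of 6136 expressed genes and 3.46% of 27025 genes. A match is a description of letters and not a site of binding. Capitals mark the match on either strand in 100 bases of the promoters of Slfn5 (chr11:82951902-82952001, plus strand) and Ifit3b (chr19:34607724-34607823, plus strand), which end 101 and 134 bases before the start site.
Slfn5: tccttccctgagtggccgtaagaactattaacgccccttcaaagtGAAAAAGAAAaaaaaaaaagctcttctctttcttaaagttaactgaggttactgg
Ifit3b: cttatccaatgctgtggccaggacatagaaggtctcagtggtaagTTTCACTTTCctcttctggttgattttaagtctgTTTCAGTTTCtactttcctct

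The interferon gamma response had 17 of 28 expressed members higher and 9 lower, with a median of 0.11 that became 0.17 with the background subtracted and 0.059 with an offset for transcript length. Beside Nos2, the members that stood out were Upp1, a uridine phosphorylase, at 24.3 (22.2 to 25.3) and 70.4 (67.2 to 77.5) scaled CPM, and Gbp2b, a guanylate-binding protein with a close paralog in Gbp2, at 61.9 (57.7 to 64.1) and 148 (141 to 159.8). Socs1, which restrains this pathway, was higher by 0.74. Gbp5, another guanylate-binding protein, was lower by 0.68, from 170.0 (165 to 176) to 104 (97.9 to 118). The chemokines Cxcl9 and Cxcl11, which draw T cells, were higher by 0.57 and 0.66.

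Antigen presentation differed by small and measurable amounts. Among 15 expressed genes of MHC class II presentation, 8 were higher and 4 lower, 0 of them by 2-fold, with a median of 0.18 that became 0.07 without the 4 libraries that stand apart. Cd74, the invariant chain, was read at 16772 (16542 to 16888) scaled CPM in tumor 1 and 19796 (19492 to 20063) in tumor 2, and H2-Ab1, a class II chain, at 6214 (5888 to 6254) and 7905 (7721 to 8028). H2-Aa, its partner chain, was higher by 0.27, and Ciita, the transactivator of these genes, by 0.28. Ctss and Ifi30, a protease and a reductase that prepare peptides in the endosome, were lower by 0.36 and 0.42. Of 23 genes of MHC class I and peptide loading, 17 were lower and 3 higher, at a median of -0.17.

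Cytokines and chemokines moved in both directions. Il10, the cytokine that restrains macrophage inflammation, fell from 64.4, 69.7 and 70.3 to 20.02, 22.3 and 23.98 scaled CPM (lowest, median and highest library), a log2 difference of -1.63 (SE 0.05, edgeR adjusted p = 3.06e-12; chr1:131019845-131024974, GRCm38). The highest library of tumor 2 was below the lowest of tumor 1 by more than the whole spread of either. Il10 was among the 15 largest decreases, for which lack of overlap between libraries was a condition. The gap is therefore no separate result. Il6, a cytokine of the acute phase, went up from 33.04 (30.3 to 37.1) to 63.5 (61.5 to 67.2), and Acod1, which makes itaconate from a citric acid cycle intermediate, from 367 (359 to 371) to 709.5 (677 to 727). Tnip3 and Tnip1, inhibitors of NF-kB signalling, were higher by 0.95 and 0.90. Of 31 expressed genes of cytokines and NF-kB, 11 were higher and 12 lower at a median of -0.03, which became 0.04 with the background subtracted.

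Among CC chemokines, Ccl5, which draws T cells, had the largest difference, at 36.3 (32.4 to 40.5) and 94.1 (90.8 to 98.2) scaled CPM. Ccl2, which draws monocytes, and Ccl3, which draws monocytes and neutrophils, were higher by 0.39 and 0.42. Ccl12 and Ccl8, which act on monocytes, were lower by 0.97 and 0.84. In all 5 of 9 expressed CC chemokines were higher and 4 lower, against 4 and 6 of 10 CXC chemokines. The platelet-type chemokines Pf4 and Ppbp were the most distant of the latter, and Cxcl1, which draws neutrophils, was lower by 0.57. Inhba, which forms activin A, went from 83.7 (82.1 to 88.5) to 248.8 (246 to 257), and Hbegf, an EGF receptor ligand, from 14.5 (11.99 to 16.7) to 29.6 (27.5 to 32.7). Pdgfc, a growth factor for fibroblasts, was lower by 1.08. The adenosine receptors Adora2a and Adora2b, counted among the inhibitory genes, were higher by 1.21 and 1.05, and of the 23 expressed inhibitory genes 9 were higher and 11 lower.

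Genes of low oxygen and glycolysis were higher in tumor 2. Under low oxygen the factor HIF1 is no longer degraded and switches on glucose uptake, glycolysis and its own feedback enzymes. Of 31 expressed members, 24 were higher and 2 lower, with a median of 0.35, and 2 exceeded 2-fold. Ndrg1, a stress-induced gene, was read at 63.8 (60.8 to 66.9) scaled CPM in tumor 1 and 187 (173 to 192) in tumor 2. Ero1l, the oxidase that forms disulfide bonds in the endoplasmic reticulum, ran at 213 (211 to 217) and 619.5 (613 to 628) (log2 difference 1.54, SE 0.01). Egln3, a prolyl hydroxylase that marks HIF1 for degradation, was higher by 0.97. Pfkfb3 and Pfkp, which drive the committed step of glycolysis, were higher by 0.80 and 0.74, and Slc2a1, the glucose transporter GLUT1, by 0.73. No library of tumor 1 reached the range of tumor 2 in these 6 genes, picked for large differences or, for Slc2a1, after its values were seen.

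The promoters of Slc2a1 and Egln3 are shown with the core of the hypoxia response element, ACGTG, in capitals. These letters are also part of the E-box CACGTG. On both strands of the same 250 bases, ACGTG was found for 17 of 28 members with a promoter in the table, or 60.7%, against 27.2% of expressed genes and 18.5% of all genes. The excerpts lie at chr4:119108645-119108744 (plus strand) and chr12:54204025-54204124 (minus strand).
Slc2a1: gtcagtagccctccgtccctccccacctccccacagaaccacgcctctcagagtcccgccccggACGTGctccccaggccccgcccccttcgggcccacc
Egln3: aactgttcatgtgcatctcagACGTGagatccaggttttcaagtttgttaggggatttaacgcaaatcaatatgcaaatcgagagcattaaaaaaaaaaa

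Lists of digestion, uptake and lipid handling differed in their balance. Of 37 expressed lysosomal and cathepsin genes, 27 were lower and 6 higher, with a median of -0.23 and 0 at 2-fold. Psap, the precursor of the saposins that help digest sphingolipids, fell from 6855 (6689 to 6919) to 3604 (3485 to 3780.3) scaled CPM. The tetraspanin Cd63, the hydrolase Gla and the protease Ctsd were lower by 0.69, 0.61 and 0.49. In phagocytosis and efferocytosis, 14 of 23 were lower and 5 higher, led by Cd93, a receptor of the C1q pathway, from 251.4 (247 to 262) to 113 (103 to 126). Scavenger receptors and lectins had 9 higher and 7 lower of 18, and Fc receptors and their adaptors 7 higher and 8 lower of 18. C1qa and C1qb, subunits of the first complement component, were lower by 0.57 and 0.40. C3, the central complement protein, was higher, from 394 (365 to 412) to 804 (713 to 864), while 9 of 14 expressed complement genes were lower and 2 higher.

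Apoe, the lipid carrier that marks lipid-laden macrophages, went from 29079 (26412 to 29535) to 16527 (16112 to 16769) scaled CPM, a log2 difference of -0.80 (SE 0.02). Cd36, a fatty acid receptor, was higher, at 11.5 (10.6 to 11.9) and 31.8 (30.98 to 38.2). Of 18 expressed genes of lipid-associated tumor macrophages, 11 were lower and 6 higher. Of 17 expressed iron and heme genes, 8 were higher and 5 lower. The most distant were Steap4, a metalloreductase, from 10.3 (9.56 to 11.03) to 39.1 (37.7 to 41.7), and Lcn2, which keeps iron from bacteria and is also a neutrophil gene, from 11.8 (10.2 to 12.6) to 42.9 (38.5 to 47.9). With Hp they were the 3 at 2-fold, while Trf, which encodes the iron carrier transferrin, and Blvrb, a biliverdin reductase, had log2 differences of -0.78 and 0.54.

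Prostaglandin and leukotriene genes changed in both directions, 6 higher and 8 lower of 14. Ptgs1, the constitutive cyclooxygenase, fell from 248 (241 to 253) to 118 (116 to 126) scaled CPM, while Ptger2, a receptor for prostaglandin E2, went from 8.42 (7.49 to 10.5) to 17.6 (16.1 to 20.7). Among genes of oxidative stress and metallothioneins, 12 of 24 were higher and 8 lower, with a median of 0.24 that became 0.06 without the 4 libraries that stand apart. Beside Gsr, the peroxiredoxin Prdx6 and the superoxide dismutase Sod2 were higher by 0.84 and 0.58, and the metallothionein Mt1 was lower by 0.54. Cholesterol efflux genes, which the LXR receptors drive, were lower in 8 and higher in 5 of 14. With Apoe, the exporter Abca1 went from 653 (620.1 to 682) to 385 (366 to 450.2) and the lipid transfer protein Pltp was lower by 0.63.

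**Figure D4:**
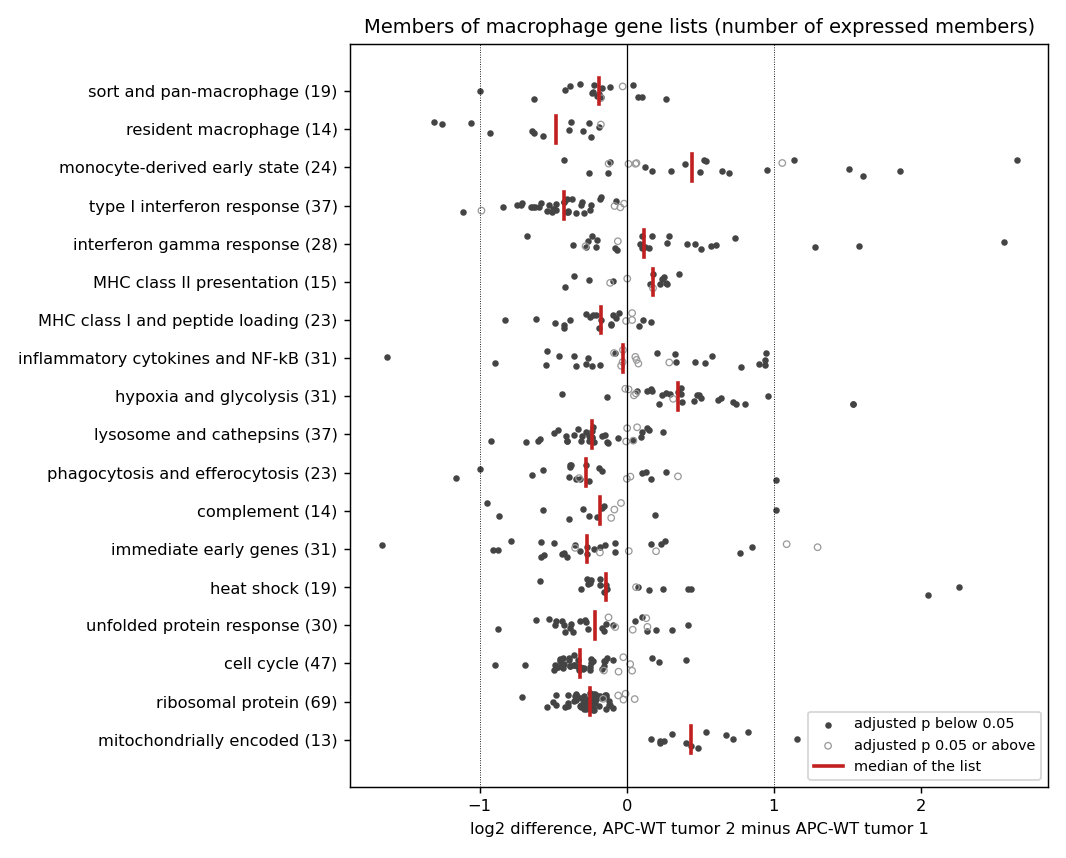
Log2 difference, tumor 2 minus tumor 1, of each expressed member of 18 gene lists, with the number of members in brackets. Filled points passed an adjusted p of 0.05, red bars are medians and dotted lines mark 2-fold. Resident macrophage and type I interferon genes lie left of 0, while hypoxia, early monocyte and mitochondrially encoded genes lie mostly to the right.

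Stress genes did not move as 1 group. Hspa1a and Hspa1b, the inducible HSP70 chaperones, were higher in tumor 2, at 428 (382 to 442) and 1756 (1709 to 1769) scaled CPM for Hspa1a and 353 (319.9 to 362) and 1679.9 (1633 to 1699) for Hspa1b. The 2 genes are near-identical neighbours (chr17:34956436-34959238 and chr17:34969190-34972156, GRCm38), so how reads divide between them is uncertain, but both were over 4-fold higher. Of the 19 expressed heat shock genes, 7 were higher and 11 lower at a median of -0.14, and the lowest lay at -0.59. Bag3, a co-chaperone, was higher by 0.44. The promoters of the pair are shown because their sequences match over the 100 bases printed. GAANNTTC, the inverted repeat that heat shock factor binds, is in capitals and was found on these 250 bases for 6 of 15 listed members with a promoter (40%), against 5.85% of expressed and 7.73% of all genes. The excerpts lie at chr17:34972206-34972305 and chr17:34959288-34959387, both on the minus strand.
Hspa1a: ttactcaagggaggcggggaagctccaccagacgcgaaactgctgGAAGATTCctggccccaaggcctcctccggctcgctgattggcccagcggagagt
Hspa1b: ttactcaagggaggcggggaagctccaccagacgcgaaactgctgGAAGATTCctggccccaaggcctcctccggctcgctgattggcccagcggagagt

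Immediate early genes, which answer stimulation and tissue digestion within minutes, were lower in 20 of 31 cases and higher in 5. Nr4a3, a nuclear receptor, fell from 75.5 (73.1 to 76.9) to 23.5 (21.6 to 27.01) scaled CPM (log2 difference -1.67, SE 0.05), and Csrnp1 and Fosb were lower by 0.91 and 0.88. The uneven genes Klf2 and Jund, also among the most distant members, lay higher without passing. Their medians went from 76.7 to 223 and from 583 to 1479. Genes of the unfolded protein response were lower in 19 and higher in 6 of 30. Cell cycle genes were lower in 39 and higher in 3 of 47, with a median of -0.32. Mki67, a marker of dividing cells, went from 70.9 (70.2 to 75.3) to 39.3 (31.8 to 43.2), Top2a, which untangles replicated DNA, was lower by 0.69, and Cdkn1a, which stops the cycle, was lower as well, by 0.48. Ribosomal protein genes were lower in 64 of 69, with a median of -0.25 and no member past 2-fold. The mitochondrially encoded genes were higher in 13 of 13, with a median of 0.44 that became 0.10 after an offset for transcript length and GC content. mt-Rnr1, a ribosomal RNA of the mitochondrion, was read at 8.97 (8.28 to 10.8) and 20.5 (19.9 to 21.5).

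Transcripts of neutrophils were more abundant in tumor 2. The 32 listed genes summed to a median of 929.7 scaled CPM in tumor 1 and 1641 in tumor 2, against an expected background of 3.44 and 24.5, so the part above background was 1.73 times as high. Of 15 expressed members, 14 were higher and 1 lower. The rule for expressed genes can favour genes that are high in 1 tumor, and of the 12 members with at least 10 scaled CPM in both tumors 6 were at least 2-fold higher. Cxcr2, the chemokine receptor of neutrophils, was read at 3.49 (2.91 to 3.699) and 19.2 (18.7 to 24.2) scaled CPM, and G0s2, an inhibitor of lipolysis, at 12.4 (11.7 to 13.8) and 64.3 (61.8 to 64.96). S100a8 and S100a9, which form calprotectin, went from 7.4000 (6.88 to 8.89) to 31.02 (29.3 to 34.5) and from 14.2 (12.6 to 15.7) to 60.9 (56.97 to 63.4). Slpi, a protease inhibitor, and Hdc, which makes histamine, were higher by 1.84 and 2.01, and the collagenase Mmp8 by 1.24, while Trem1, Csf3r and Il1r2, receptors that monocytes share, were higher by 0.15, 0.49 and 0.58. The exception was Mmp9, a gelatinase, lower by 0.95. The defining markers Ly6g and Mpo stayed low: Ly6g was read at 0.251 (0.122 to 0.405) and 0.753 (0.338 to 1.15) against an expected background of 0.0555 and 0.396, and Mpo, a granule enzyme made in the marrow, at 0.487 (0.346 to 0.776) and 1.63 (1.42 to 2.32) against 0.202 and 1.44. With the background subtracted, neither passed the test between the tumors.

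Genes of the colon epithelium were higher in tumor 2, in the case of Car1 by more than 8-fold. The 37 listed colon epithelial genes summed to 162 to 170.2 scaled CPM in tumor 1 and to 891 to 924 in tumor 2, with an expected background of 6.24 and 44.5. The part above background was 5.43 times as high in tumor 2. Much of that rests on Car1, whose medians were 55.98 and 509 beside median sums of 166 in tumor 1 and 916 in tumor 2. All 9 expressed members were higher and all by 2-fold, but only 2 of them had 10 scaled CPM in both tumors. Car1, a carbonic anhydrase of colonocytes and red cells, was read at 53.3, 55.98 and 58.4 (lowest, median, highest library) and 484, 509 and 512, a log2 difference of 3.17 (SE 0.03, edgeR adjusted p = 1.11e-17; chr3:14766216-14808368, GRCm38). Reg4, of secretory cells, went from 5.34 (4.42 to 6.19) to 27.1 (25.1 to 30.4), and the surface proteins Gpa33 and Cdh17 of intestinal cells were higher by 2.31 and 2.28. Fcgbp and Guca2a, products of goblet and surface cells, were higher by 1.13 and 2.11, Cdx1, the intestinal homeobox factor, by 2.24, and Lgals4, a galectin of the gut lining, by 1.77.

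General epithelial genes moved alike: 12 of 13 expressed members were higher and 1 lower, with a median of 1.94. Of the 7 members with at least 10 scaled CPM in both tumors, 6 were higher, 5 of them by 2-fold, and 1 was lower. Keratins Krt8, Krt18, Krt19 and Krt20 were higher by 1.59, 2.35, 2.05 and 2.10, and Epcam, the epithelial adhesion molecule, went from 11.3 (8.92 to 12.3) to 41.8 (38.1 to 45.7) scaled CPM. The junction gene Cldn7 and the protease inhibitor Spint2 were higher by 2.06 and 2.13, and Cdh1, E-cadherin, by 0.83. Spint1, the member that was lower, ran at 287 (276 to 293) and 237 (234 to 248), far above its expected background in both. Of 15 expressed genes on a list of candidates for MC38 cells, 11 were higher and 4 lower, and 6 of the higher ones are also epithelial genes. No library here is of MC38 cells or of normal colon, and the source of these transcripts was not tested.

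Among the largest increases were genes that no list holds, several of them known from gut epithelium. Cyp2c55, a cytochrome P450 of the colon, had the largest among the coding genes named, from 10.8, 11.98 and 12.7 to 189, 195 and 201 scaled CPM, a log2 difference of 4.04 (SE 0.05; chr19:39007019-39042693, GRCm38). Ces2e, a carboxylesterase, Cdhr2, a protocadherin of the brush border, and Prom1, the apical protein CD133, were higher by 2.54, 2.39 and 2.29. Lrg1, an acute-phase glycoprotein, went from 16.6 (14.3 to 20.1) to 89.9 (80.04 to 92.99), and Il1f9, the cytokine IL-36 gamma of barrier cells and inflamed macrophages, from 4.74 (3.84 to 5.25) to 24.7 (22.98 to 29.999). For these 6 genes, lack of overlap between the libraries of the tumors was a condition for being named, so it is no separate result. Ces2e, Cdhr2, Prom1 and Il1f9 had low medians in tumor 1, at 3.48, 6.31, 7.17 and 4.74 scaled CPM. Their mean level over both tumors, which the rule for expressed genes uses, rests mainly on tumor 2.

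Of 3 expressed genes on the plasma cell list, 2 were higher in tumor 2 and 1 lower. On the B cell list, which holds Igkc, Ighm and Cd22, 2 of 4 were higher, 1 lower and 1 did not pass. Of the 3 B cell genes with at least 10 scaled CPM in both tumors, 1 was higher and 1 lower. Igha, the heavy chain of IgA, was read at 14.7 (13.7 to 16.4) scaled CPM in tumor 1 and 129 (123 to 134) in tumor 2, and Igkc, the kappa light chain, at 5.601 (4.85 to 5.99) and 57.9 (54.5 to 60.6). Sdc1, the syndecan of plasma cells and epithelium, was higher by 0.84, and Prdm1, a transcription factor of plasma cells that macrophages also express, was lower by 0.23. Jchain, which joins IgA into dimers and fell short of the level for expressed genes, ran at 1.86 (1.75 to 1.9998) and 18.7 (15.9 to 24.5). Ighm, the heavy chain of IgM, did not pass, at 75.6 (72.3 to 77.5) and 78.6 (74.1 to 86.5), and Cd22, a B cell receptor, was lower by 0.64.

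Further lists cover lymphocytes, dendritic cells, fibroblasts, platelets and red cells. The 31 T cell genes summed to 86.98 to 92.9 scaled CPM and 162 to 175, with backgrounds of 7.28 and 51.9, and 1 member, Il7r, counted as expressed and was higher by 0.87. The 21 genes of NK and cytotoxic cells summed to 120.4 to 134 and 231 to 246, with backgrounds of 3.03 and 21.6. These sums include Ccl5, listed among the CC chemokines too, with medians of 36.3 and 94.1. The expressed members beside Ccl5 were the activating receptor Klrk1, higher by 0.40, and the IL-2 receptor chain Il2rb, higher by 0.31. Genes of migratory dendritic cells went down slightly, with 4 of 5 expressed members lower, among them Cd83 and Fscn1, a surface molecule and an actin bundler, by 0.39 and 0.29. Cd3e, a chain of the T cell receptor complex, was read at 2.67 (1.65 to 3.103) and 6.06 (3.94 to 7.61) against 0.240 and 1.71. Fibroblast genes went down: 13 of 14 expressed members were lower and 1 higher, with a median of -0.57. Lum, a proteoglycan of collagen fibrils, fell from 46.5 (46.1 to 50.7) to 19.996 (17.4 to 22.9), and the collagens Col3a1, Col6a2, Col6a1 and Col5a1 were lower by 0.99, 0.91, 0.86 and 0.79. Gsn, the member that was higher, encodes an actin-severing protein that macrophages also express. The 2 expressed platelet genes, Pf4 and Ppbp, were both lower, and Ppbp went from 40.8 (39.1 to 43.5) to 18.4 (16.2 to 23.1). Hba-a1, the globin that defines red cells, was read at 0.213 (0.128 to 0.406) and 0.505 (0.303 to 0.616) against a background of 0.0478 and 0.341.

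**Figure D5:**
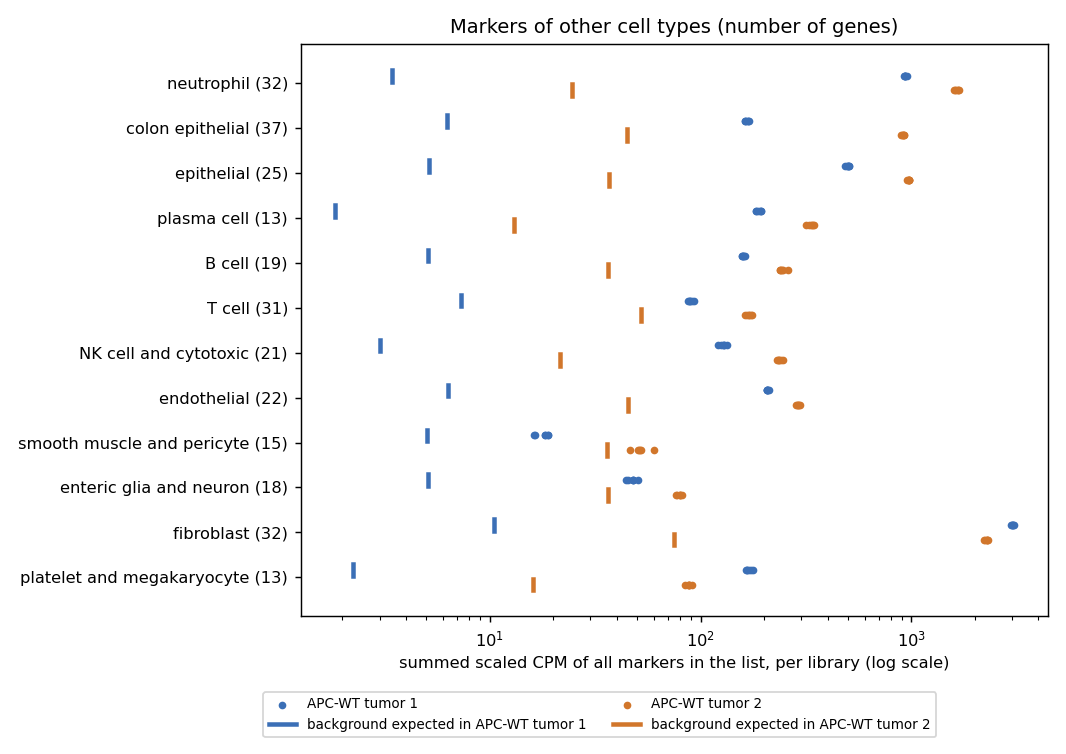
Summed scaled CPM (log axis) of all listed markers of 12 cell types in each library of tumor 1 and tumor 2, as points. Vertical ticks are the sums expected from the Olfr and Vmn background. Neutrophil, colon epithelial, epithelial and plasma cell sums are higher in tumor 2, fibroblast and platelet sums lower, and smooth muscle sums of tumor 2 lie close to the tick.

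Among the largest decreases named were several genes that no list holds. Max, the partner of MYC in DNA binding, had the largest, from 73.4, 76.2 and 84.2 to 17.4, 18.6 and 21.7 scaled CPM (lowest, median and highest library), a log2 difference of -2.02 (SE 0.05, edgeR adjusted p = 7.69e-13; chr12:76937269-76962201, GRCm38). Spon1, a secreted matrix protein, fell from 519 (513 to 524) to 187 (175 to 197), and Arl5c, a small GTPase of the ARF family, from 265 (262 to 269.9) to 98.4 (94.2 to 103). Raly, an RNA-binding protein, and Rab5c, a GTPase of early endosomes, were lower by 1.31 and 1.30. Kcnj2, a potassium channel, and Pxdc1 were lower by 1.25 and 1.25. Kctd12, a subunit of GABA-B receptors, was lower by 1.42 and varied between libraries, at 499.7 (343 to 711) in tumor 1 and 189 (133 to 248) in tumor 2. For these 8 genes too, lack of overlap between the libraries of the tumors was a condition for being named.

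Apc itself, which the tumor cells of both groups carry, was read at 35.1 (30.8 to 36.3) scaled CPM in tumor 1 and 24.9 (23.4 to 27.6) in tumor 2, and fell short of the level for expressed genes because its long exons have an expected background of 0.949 and 6.77. Tdo2, the tryptophan dioxygenase of the series' title, was read at 0.223 (0.121 to 0.485) and 2.33 (1.74 to 2.73) scaled CPM against backgrounds of 0.229 and 1.63. Its log2 difference of 3.07 was thus between levels close to the background of each tumor. The satellite-like gene models were higher in all 11 of 11 cases, and took 1.32% ± 0.0796 and 7.05% ± 0.279 of counts (SD, n = 6). Background and these loci moved with the tumor, and their part in the genes of low level was not tested. With the expected background subtracted, 147 genes were at least 2-fold higher and 52 lower.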

How the data were processed

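RNA of sorted tumor macrophages was sequenced in 24 libraries, of which the 12 of the APC-WT tumors are compared here, grouped by the sample titles. The authors deposited whole-number counts per gene. The submitters' processing notes name bcl2fastq 2.20.0, HISAT2, StringTie and the build mm9, while strand, annotation and the step to whole counts are not given in the sources used here. Without strand, reads of overlapping genes cannot be told apart. Gene symbols, exon lengths and coordinates come from GENCODE M21 (GRCm38), which held 55227 of 55487 identifiers.

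Genes passing edgeR's filterByExpr were tested with edgeR 4.0.16 (glmQLFit, glmQLFTest; R 4.3.3) without a replicate block, with TMM factors and library sizes from the expressed genes and Benjamini-Hochberg adjustment. SE is the log2 difference divided by the root of the F statistic. DESeq2 1.42.0 and limma 3.58.1 served as alternatives, beside other scalings, filters, fold limits, background subtraction, offsets and left-out libraries. On simulated counts of these 12 libraries, 95% and 98% of genes changed by 1 and by 2 log2 units passed the adjusted p. With the 2-fold limit as well, 49% and 98% were called, and so were 7 unchanged genes. Apart from the changed genes, both tumors were simulated from the same mean levels, without their difference in background.

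The comparison, gene lists and tests were chosen with earlier results of these data known. Named genes were the 15 coding genes each way with the largest difference among those at least 2-fold, without overlap and with 20 scaled CPM, up to 5 members per list by difference and, for other cell types, by level, and 8 fixed genes. Arg1, Cd3e, Hba-a1, Ly6g, Mpo and Slc2a1 were named after their values were seen, as were the libraries said to stand apart. No blank or total entries are in the table. A few genes that this rule names are not reported here.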

Additional observations from a re-analysis of the deposited data

Results flagged for a closer look

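In 21 of 338 groups of 6 libraries (one gene in one tumor), the highest or lowest library was separated from the rest by more than Dixon's 95% critical value. That is 6.21% of the groups, and chance gives about 1 in 20. Values are scaled CPM of that library, followed by the range of the other 5.

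In tumor 1, library 3 held 9 of them. It was low in the lipid carrier gene Apoe at 26412 against 28758 to 29535, in H2-Ab1 at 5888 against 6191 to 6254, in Lmna at 324 against 356 to 368, in Hspa1b at 319.9 against 348 to 362 and in Cldn7 at 8.84 against 9.99 to 10.6. It was high in Ccl12 at 228 against 199 to 209.6, in Cd63 at 238 against 224 to 229, in Ifi44 at 128 against 117 to 119.8 and in Vcam1 at 337 against 324 to 328. Library 1 was high in Cebpb at 1377 against 43.5 to 142, in Egln3 at 21.8 against 18.8 to 19.9 and in Malat1 at 1307 against 1186 to 1227. Library 4 was high in Mki67 at 75.3 against 70.2 to 71.4, and library 6 in Pfkfb3 at 196 against 187 to 189.7.

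In tumor 2, library 4 was low in the interferon gene Ifit2 at 9.89 against 348 to 381, and in Ccl2 at 569 against 594 to 607. Library 1 was low in Ces2e at 16.2 against 20.2 to 21.9, in Ndrg1 at 173 against 186 to 192 and in Sod2 at 308 against 322 to 329. Library 5 was low in Cdx1 at 11.5 against 17.8 to 20.6, and library 6 was high in Cxcr2 at 24.2 against 18.7 to 19.9. Beside Cebpb and Ifit2, leaving out the library in question changed no call of these genes.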

How the results depend on the processing

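With the scaling moved to all tested genes, TMM gave 58 expressed genes at least 2-fold higher and 2728 lower (132 and 7327 at any fold), and DESeq2 with its own size factors gave 35 and 6121 (98 and 7486). Under that TMM, 36 of 169 named genes and 24 of 58 list medians changed sign. Relative to the shifted median of expressed genes, no named gene changed its call. That setting adds the shift back and so comes close to the main scaling by construction. Against 148 higher and 45 lower, the limit of 30 times background gave 88 and 28, 10 CPM in both tumors gave 88 higher, glmTreat gave 27 lower, no fold limit 2259 and 2582, 1.5-fold 352 and 278, and 4-fold 55 and 1. The other settings with all 12 libraries kept both numbers within 1.5 times. Leaving out 1 library gave 143 to 236 higher and 42 to 48 lower, and 2133 to 2321 and 2464 to 2581 at any fold. All 4 libraries that stand apart left out gave 189 genes at 2-fold, of which 173 were among the 193.

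List medians moved as follows. With the background subtracted, interferon gamma became 0.17, resident macrophage -0.43, fibroblast -0.66, sort and pan-macrophage -0.13, and cytokines and NF-kB changed sign to 0.037. With the length offset, interferon gamma became 0.059, neutrophil 1.77 and sort and pan-macrophage -0.25. With length and GC, epithelial became 1.88 and colon epithelial 2.12, and without the 4 libraries colon epithelial became 2.12. Cd68 changed sign to -0.014 with the length offset and Hba-a1 to -0.27 with the background subtracted. Background per kb in tumor 1 was 0.0566 from Olfr alone, 0.0632 from Vmn alone and 0.0478 as a median per gene. The cause of each was not tested.

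With replicate number as a block, 152 genes were at least 2-fold higher and 46 lower, and Klf2 and Ighm passed. Libraries of equal number did not all deviate together (r from -0.64 to 0.80), and 2 of 6 correlated best with their own number. Of the uneven genes, Klf4 had 0.64 to 0.70 without the single libraries that ended its call, Jund passed without library 1 of tumor 1 (1.51) or 5 of tumor 2 (1.29), and Klf2 without library 1 of tumor 1 (1.81) or 4 (1.49) or 5 (1.51) of tumor 2. Ighm passed without library 4 of tumor 2 (0.10). Depth limits genes of few counts, most of all in tumor 2.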

Other observations

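Of 72 expressed subunits of the respiratory chain, 11 were higher in tumor 2 and 16 lower, and of 31 proteasome subunits 12 were higher and 8 lower, 0 of either by 2-fold. The actin cytoskeleton and its partners had 21 of 38 expressed members higher and 13 lower. Vim, the intermediate filament vimentin, went from 346 (333 to 355) to 609.8 (589 to 634) scaled CPM (median, with the lowest and highest library), and Lmna, a lamin of the nuclear envelope, from 361 (324 to 368) to 721 (702 to 746). Actr2, a subunit of the complex that branches actin, was lower by 0.82 on the log2 scale. The nuclear noncoding RNAs Malat1 and Neat1 were higher by 0.54 and 0.66.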
